A study of Homo sapiens with 18 samples.

Results

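The genes described here are those of the cytosolic ribosomal proteins, chosen by symbol alone: RPL or RPS followed by a number and, where present, an A or an X, together with RPLP0, RPLP1, RPLP2 and RPSA. The rule found 70 genes among the 20705 of the count table, of which 41 encode proteins of the large subunit and 29 proteins of the small subunit. In the GENCODE annotation of GRCh37 they lie on 21 chromosomes, 12 of them on chromosome 19 and 2 on X. RPL15, RPL26, RPL32, RPL35A, RPL36A, RPS4X and RPS10 were not analysed here. The RNA came from cultures of CHL1, a human melanoma cell line with wild-type BRAF and NRAS and mutant p53, and of A375, a human melanoma cell line with mutant BRAF and wild-type p53. Controls received DMSO, the solvent of both drugs. CDK4/6 inhibition (CDK4/6i) was by 1 µM palbociclib, a blocker of the kinases CDK4 and CDK6 that drive entry into S phase, and PRMT5 inhibition (PRMT5i) was by 500 nM GSK3326595, a blocker of an arginine methyltransferase that acts on splicing factors among other proteins. CHL1 cells were sampled after 72 hours of DMSO, of CDK4/6i or of PRMT5i and after 6 days of CDK4/6i, and A375 cells in the same 4 groups and after 6 days of DMSO. Each of the 9 groups held 2 libraries, 18 in all. The only CHL1 control was that of 72 hours, so the 6-day CHL1 group was compared with it, while the 6-day A375 group had a control of its own time. All CHL1 libraries and the 6-day A375 libraries carry one library set name and the A375 libraries of 72 hours another, so each treatment was compared with a control of its own set, but CHL1 and A375 at 72 hours also differ in set. The study's methods speak of 2 replicates grown for each condition and do not say how separately, so the p-values below measure the spread between these libraries, part of which may be technical.

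A cytosolic ribosome carries one copy of nearly every one of these proteins, so cells make them in matched amounts, and their mRNAs are among the most abundant of a growing cell. Most of these mRNAs begin with a C followed by a run of pyrimidines, the 5′ terminal oligopyrimidine (TOP) motif, through which mTORC1 and the binding protein LARP1 set their translation and stability together. Some of the proteins have second roles outside the ribosome: RPL5 and RPL11 travel with 5S rRNA and can bind MDM2, the ubiquitin ligase that keeps p53 low, when ribosome assembly is disturbed.

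The start of the transcript is shown for 9 members that the results below turn on, to let the TOP motif be seen beside the values. Sequences are from RefSeq windows of GRCh38.p14 around annotated start sites, 12 bases before the start and 18 from it onwards, in the sense of the gene. Capitals mark the TOP run, defined as a C at the start site followed by at least 4 C or T letters, searched on the sense strand only.
RPLP0 (chr12:120201094-120201123, minus strand): cgggcgcgaggcCCTTCTCTCgccaggcgt
RPL13A (chr19:49487596-49487625, plus strand): caaaacctcctcCTTTTCCaagcggctgcc
RPS3 (chr11:75399506-75399535, plus strand): cgcgagccacttCCTTTCCTTTCagcggag
RPS9 (chr19:54200846-54200875, plus strand): gcgcttccgcgcCTCTTTCTCagtgaccgg
RPSA (chr3:39406708-39406737, plus strand): cctgccgcctgtCTTTTCCgtgctacctgc
RPS27 (chr1:153990750-153990779, plus strand): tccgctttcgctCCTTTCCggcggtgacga
RPL21 (chr13:27251546-27251575, plus strand): ccccgcctctttCCTTTCggccggaaccgc
RPL9 (chr4:39458905-39458934, minus strand): cgtaatgacgacagacgttctttctttgct
RPS28 (chr19:8321484-8321513, plus strand): ccgaagcacgtgactcctctccgccagacc

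The first 7 of these begin with the motif, with runs of 6 to 11 letters. RPL9 and RPS28 do not have it at the annotated start, which says only that these letters are not in that place. Windows were found for 55 of the 70 members, some with more than 1 window, and 42 of their 66 windows had a TOP run at the start, against 4.07% of the 35116 windows of all genes.

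The libraries held 16213475 to 37424081 counts on genes, and 274533 to 913889 of these lay on the 70 members. Of the members, 69 had at least 10 counts in every library, and the exception was RPL17, with 2 to 36. Of 9 melanocyte markers listed, 6 were measured. Their summed levels were 143 to 268 CPM (counts scaled to the TMM-adjusted library size) in CHL1 and 122 to 271 CPM in A375, but several were low or absent. In CHL1 TYR was at 0 to 0.0674 CPM, PMEL at 0.408 to 1.69 CPM and TYRP1 at 0.670 to 3.77 CPM. In A375 MITF (85.0 to 218 CPM) and S100B (3.85 to 114 CPM) made up most of the sum. There DCT was at 0 to 1.87 CPM, TYRP1 at 0.165 to 0.840 CPM, PMEL at 0.805 to 3.39 CPM and TYR at 0 to 5.17 CPM. Of 4 markers of other cells, 2 were measured (PTPRC and EPCAM), at a summed 7.66 to 16.2 CPM in CHL1 and 1.52 to 2.91 CPM in A375. In 4 libraries the deviation of gene levels from the median of the libraries of that cell line followed the GC content of the transcript: the decile of genes richest in GC lay below the poorest decile by a log2 difference of -2.88 and -2.21 in the PRMT5i libraries of CHL1 and of -2.55 and -1.26 in the 6-day control of A375. The same difference was -0.20 to 0.56 in the other 14 libraries.

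Ribosomal protein mRNAs took a smaller share of all gene counts in CHL1 cells under PRMT5i than in any other group. The members held 1.93% and 1.64% of counts in the CHL1 control libraries, 2.02% and 1.78% after 72 hours of CDK4/6i, 1.66% and 1.70% after 6 days of CDK4/6i and 0.768% and 0.773% after PRMT5i. The PRMT5i mean of 0.770% ± 0.00335 (SD, n = 2) was 0.431 times the control mean of 1.79% ± 0.205 (SD, n = 2). In A375 at 72 hours the share was higher in every library than in CHL1, and under the same drug it lay above the control rather than below it: 2.95% and 3.25% in the 72-hour control, 3.67% and 3.78% after 72 hours of CDK4/6i and 3.67% and 4.12% after PRMT5i. Both 72-hour A375 treatments thus lay above both controls. At 6 days the A375 control libraries held 1.40% and 2.15% and the CDK4/6i libraries 2.79% and 2.32%, again without overlap. The small-subunit genes held 0.755% and the large-subunit genes 1.03% of counts in the CHL1 control, and 0.318% and 0.452% after PRMT5i. With 2 libraries against 2, an exact test of a single share cannot reach a two-sided p below 0.05, so these shares are given as values. The libraries with the GC trend, those of CHL1 PRMT5i and of the 6-day A375 control, also held the lowest shares within their cell line. The part of that trend in the shares was not tested. The libraries are of bulk RNA, in which fewer cells carrying an mRNA and less of it per cell cannot be told apart.

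**Figure D1:**
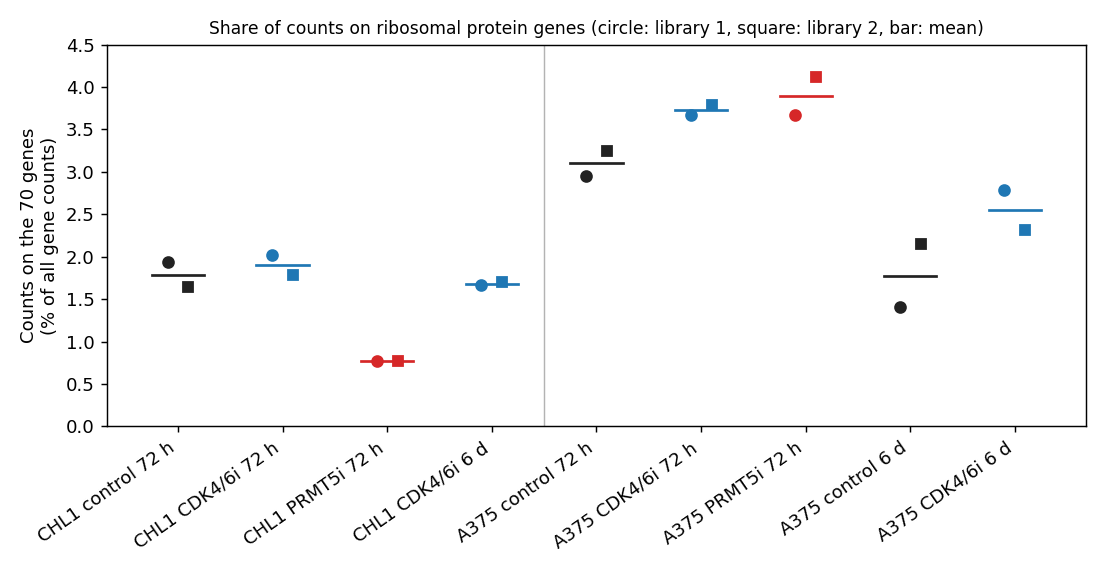
Counts on the 70 ribosomal protein genes as a percentage of all gene counts (vertical axis) in each of the 18 libraries, by group (horizontal axis), with circles and squares for libraries 1 and 2 and bars for the mean of the group. The PRMT5i libraries of CHL1 sit at 0.768% and 0.773%, the lowest of all, and the PRMT5i libraries of A375 at 3.67% and 4.12%.

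The 2 libraries of a group often differed across the whole module rather than gene by gene. In the CHL1 control, 68 of 70 members were higher in library 1, by a median log2 difference of 0.25, and after 72 hours of CDK4/6i all 70 were. In A375 at 72 hours, 68 of 70 members were lower in library 1 of the control, 53 of CDK4/6i and 69 of PRMT5i. The median absolute log2 difference between the 2 libraries was larger for the members than for all genes averaging 1 CPM or more in 6 of the 9 groups, for example 0.37 against 0.19 in A375 PRMT5i and 0.25 against 0.15 in the CHL1 control. The members thus did not vary independently between libraries, and the number that moved is not a number of separate observations.

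Most ribosomal protein mRNAs of CHL1 were lower under PRMT5i, in the only CHL1 libraries with the GC trend. In edgeR's quasi-likelihood test with Benjamini-Hochberg adjustment over all 20705 genes, 52 of 70 members fell and 2 rose at an adjusted p below 0.05, where 27.6% of all genes fell and 26.4% rose. The median log2 fold change was -0.99 for the members (quartiles -1.27 and -0.49) and 0.00 for all genes. Both treated libraries lay below both controls for 57 members, against 39.2% of all genes. In the large subunit 31 of 41 genes fell and in the small subunit 21 of 29.

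RPS2, the small-subunit protein known as a substrate of the methyltransferase PRMT3, fell furthest, from 1259 and 1067 CPM in the controls to 329 and 520.3 CPM under PRMT5i, a log2 fold change of -1.45 ± 0.21 (SE; adjusted p = 0.000215). RPS28, at 132 and 101 CPM in the controls, was at 35.9 and 52.4 CPM, a change of -1.40 ± 0.21 (adjusted p = 0.000232). For both genes the treated libraries lay far below the controls, although their ratio to each other was larger than that of the controls.

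The 3 proteins of the stalk, which recruits the GTPases of translation to the large subunit, fell together. RPLP0, the anchor of the stalk, went from 812 and 697 CPM to 259 and 363 CPM (log2 fold change -1.28 ± 0.19, adjusted p = 0.000222), and RPLP1 and RPLP2, which bind to it as dimers, fell by 1.35 ± 0.20 and 1.37 ± 0.23 on the log2 scale. The members of the 5S particle fell less. RPL5 was at 502 and 432 CPM in the controls and 369 and 312 CPM under PRMT5i (-0.46 ± 0.16, adjusted p = 0.0288), and RPL11 at 124 and 96.5 CPM and then 69.6 and 64.5 CPM (-0.72 ± 0.19, adjusted p = 0.00654). RPL23, which also binds MDM2, fell by 0.76 ± 0.16 on the log2 scale.

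RPS6, the phosphorylated target of the S6 kinases, went from 549 and 471 CPM to 372 and 290.5 CPM (-0.62 ± 0.17, adjusted p = 0.0092). RPSA, known outside the ribosome as the laminin receptor, went from 506 and 469 CPM to 246 and 285 CPM (-0.87 ± 0.18, adjusted p = 0.00151). RPS3, which also has a role in DNA repair, fell by 1.06 ± 0.16 and RPL13A, part of the interferon-induced complex that silences mRNAs, fell by 1.39 ± 0.21 on the log2 scale. RPL10, an X-linked protein needed for joining of the subunits, fell by 1.14 ± 0.20, RPL38, known for its effect on the translation of Hox mRNAs, by 1.02 ± 0.20, and RPL41, a very short and basic peptide, by 0.86 ± 0.18. Of 9 genes listed for Diamond-Blackfan anaemia, an inherited failure of red cell production, 7 were measured and 5 fell. That is beside 52 of all 70 members and 27.6% of all genes. Among the 5 were RPS19 (463 and 395 CPM, then 140 and 226 CPM; -1.23 ± 0.21, adjusted p = 0.000524) and RPS26 (-0.74 ± 0.22). RPS14, lost in the myelodysplasia of the 5q deletion, is not on that list and fell by 1.32 ± 0.18. The call of RPL5 was lost without either control library and without PRMT5i library 2, that of RPS6 without control library 1 and without PRMT5i library 2, and those of RPL11 and RPS26 without control library 1.

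The genes that rose under PRMT5i in CHL1 were RPL21 and RPL9, both of the large subunit. RPL21 was at 28.3 and 25.5 CPM in the controls and 50.8 and 34.0 CPM under PRMT5i (0.66 ± 0.22, adjusted p = 0.0215), and RPL9 at 95.3 and 91.7 CPM and then 182 and 105 CPM (0.62 ± 0.22, adjusted p = 0.0288). For both, the treated libraries lay above the controls but far apart. The other 16 members did not pass the test. Among them were RPL22, which binds small viral RNAs and is frequently lost in tumours, with a log2 fold change of 0.34 ± 0.21 (adjusted p = 0.193), RPS27A, made as a fusion with ubiquitin, with 0.13 ± 0.23 (adjusted p = 0.678), and RPS24, with -0.17 ± 0.20 (adjusted p = 0.487). Neither RPL21 nor RPL9 was called when either control library was left out, nor when PRMT5i library 1, the higher of the treated pair, was left out. RPL9 was at -0.050 (adjusted p = 0.876) after a correction for the GC content of the transcript, described next, while RPL21 was at 0.82 (adjusted p = 0.0136) after it and at 0.13 (adjusted p = 0.682) with that correction made from canonical transcripts.

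The fall followed GC content among the members themselves. Their longest transcripts held 37.4% to 63.7% GC, and Spearman's rho between GC content and the log2 fold change in CHL1 PRMT5i was -0.71 over 70 members, all measured in the same 4 libraries. In the other 5 comparisons with a control it was between 0.06 and 0.21. After a loess correction of each library for GC, 47 of the 69 members averaging 1 CPM or more fell and 1 rose, where 19.3% of the 13639 genes in that fit fell and 14.9% rose, with a median of -0.69 for the members. The order of the genes turned: RPL5, the member with the least GC at 37.4%, moved from -0.46 to -1.54, while RPS28 moved from -1.40 to -0.25 (adjusted p = 0.166), RPS19 from -1.23 to -0.36 (adjusted p = 0.0558) and RPS2 from -1.45 to -0.51 (adjusted p = 0.0143). The corrected fold changes rose with GC content (rho 0.63), so that neither fit was free of a trend with GC among the members. The same corrected fold changes had a rho of 0.27 with the GC content of the canonical transcript. With GC content taken from the canonical transcript the rho of the members' fold changes was -0.82 before the correction and that correction left 50 members lower and 0 higher. The median of the members was thus below 0 in every one of these fits, while the order of the members changed. In CHL1 only the PRMT5i libraries had the GC trend, so trend and drug cannot be told apart as sources of the fall. The 6-day DMSO control of A375, with a trend of the same sign, lay below the 72-hour control for 42 members. It lay above for 3, where 23.8% of all genes were lower and 24% higher, and the median was -0.67. That comparison crosses the library sets. The summed level of PTPRC and EPCAM was 7.66 and 7.68 CPM in the CHL1 controls and 14.2 and 15.8 CPM under PRMT5i, EPCAM making up no more than 1.07 CPM of any of them, and PTPRC had a log2 fold change of 1.00 ± 0.20 and of -0.27 ± 0.22 after GC correction. Its part in these results was not tested.

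**Figure D2:**
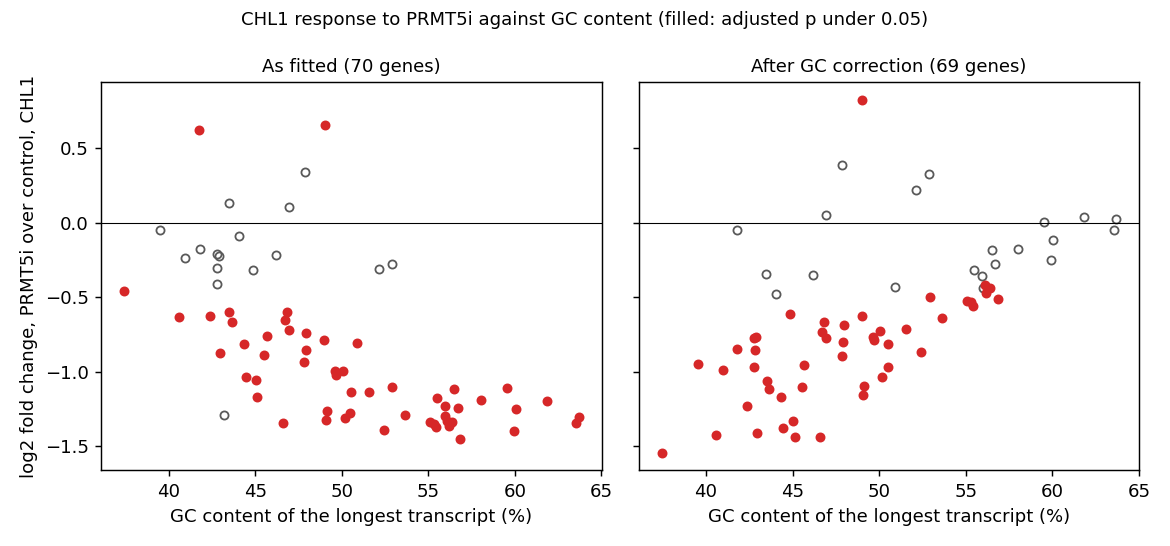
The log2 fold change of each ribosomal protein gene in CHL1 PRMT5i over control (vertical axis) against the GC content in percent of its longest transcript (horizontal axis), as fitted for 70 genes on the left and after GC correction for 69 genes on the right, with filled points for an adjusted p below 0.05. The points slope downwards on the left (rho -0.71) and upwards on the right (rho 0.63), and most lie below 0 in both.

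In A375 the same drug at the same dose and time gave small differences in the opposite direction. No member passed the test, where 2.61% of all genes did in either direction, with 9 members at an unadjusted p below 0.05 and 0 called by limma voom or DESeq2. Fits of only the compared groups called 1 member, those of the 6 A375 libraries of 72 hours 10, and the GC correction 2, without the share of all genes reported here. The fold changes were nonetheless alike: 69 of 70 were positive, the median was 0.35 (quartiles 0.26 and 0.39) against 0.00 for all genes, and for 42 members both treated libraries lay above both controls, against 26.2% of all genes. RPS19 had the highest value, from 830 and 910 CPM in the controls to 1231 and 1438 CPM (0.62 ± 0.22, adjusted p = 0.169), followed by RPL30, which regulates its own splicing and translation, from 22.9 and 31.9 CPM to 37.2 and 45.7 CPM (0.59 ± 0.21, adjusted p = 0.169). RPL17 at -0.09 ± 0.51 and RPS15A at 0.12 ± 0.18 had the lowest. Without PRMT5i library 2 the median of the members was 0.14 and without PRMT5i library 1 it was 0.51.

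The difference between the cell lines in this response was tested as an interaction in a fit of all 18 libraries. The CHL1 response was lower for 54 members and higher for 0, where 22.1% of all genes were lower and 18.8% higher, with a median difference of -1.37 on the log2 scale against -0.09 for all genes. After GC correction 48 of 69 members were lower, against 12.1% of genes, with a median of -1.05. In the fit without GC correction RPS28 differed most, by -1.94 ± 0.31 (adjusted p = 0.000273), then RPS19 by -1.88 ± 0.32 (adjusted p = 0.000405). The falls of both in CHL1 were smaller after GC correction and no longer passed the test. RPLP0 differed by -1.62 ± 0.30, RPS2 by -1.69 ± 0.32, RPL11 by -1.32 ± 0.31 and RPL5 by -0.86 ± 0.26. RPL21 and RPL9, with differences of 0.39 ± 0.28 and 0.37 ± 0.31 (adjusted p = 0.303 and 0.363), were the 2 members with a positive difference. Leaving out each of the 8 libraries in turn left 44 to 59 members called. RPL5 was at -1.06 to -0.69 in these fits and was not called in all of them. The library set and the cell line cannot be told apart as sources of this difference, although each response was measured within its set.

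**Figure D3:**
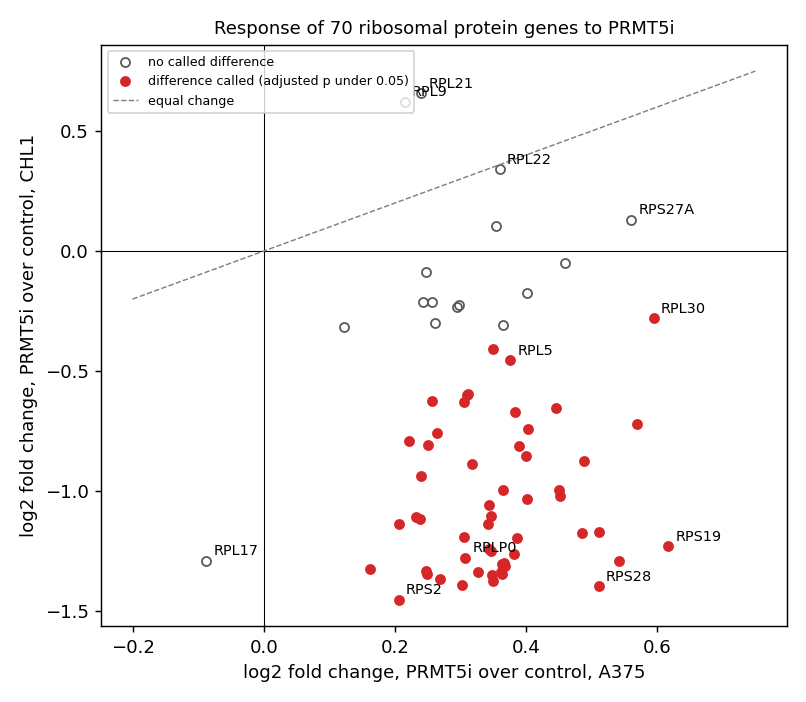
The log2 fold change over control of each of 70 ribosomal protein genes under PRMT5i in CHL1 (vertical axis) against that in A375 (horizontal axis), with filled points where the test of the difference gave an adjusted p below 0.05 and a dashed line where both would be equal. The 54 filled points lie below the line, with RPS28 and RPS19 among the lowest, and RPL21 and RPL9 lie above it.

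CDK4/6i of CHL1 cells gave no such fall. At 72 hours 0 members passed the test, where 4.98% of all genes did, and 0 had an unadjusted p below 0.05 or were called by limma voom or DESeq2. The median log2 fold change was 0.09, with RPL27A at 0.34, RPS15A at -0.37 and RPL17 at -0.33 near the ends of the range. At 6 days 1 member fell and 0 rose, where 7.8% of all genes fell and 8.83% rose. That member was RPSA, at 506 and 469 CPM in the controls, 452 and 430 CPM at 72 hours and 367 and 263 CPM at 6 days, a log2 fold change of -0.63 ± 0.18 at 6 days (adjusted p = 0.0331). Both 6-day libraries were below both controls, but the call was lost without control library 1, without control library 2 and without 6-day library 2. RPS23, a protein of the decoding centre, had -0.76 ± 0.26 (adjusted p = 0.0689) at 1.85 to 3.61 CPM over the CHL1 libraries, and RPLP1 had 0.33 ± 0.20. Between 6 days and 72 hours of CDK4/6i 0 members differed, where 0.0145% of genes did, with 2 members at an unadjusted p below 0.05, 0 called by limma voom or DESeq2 and a median of -0.17.

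In A375 at 72 hours of CDK4/6i the members were higher by a median of 0.30, but 0 passed the test, where 13.3% of all genes did. Fold changes were positive for 68 members, both treated libraries lay above both controls for 49 (32.9% of all genes), 8 had an unadjusted p below 0.05, and limma voom called 0 and DESeq2 3. Fits of only the compared groups called 24 members, all higher, those of the 6 A375 libraries of 72 hours 12, and the GC correction 7. The shares of all genes called in those fits are not reported here. RPS28 went from 147 and 181 CPM to 242 and 259 CPM (0.61 ± 0.21, adjusted p = 0.0709) and RPS27, a zinc-finger protein, from 61.4 and 80.3 CPM to 98.7 and 115 CPM (0.59 ± 0.24, adjusted p = 0.119). RPL21 was among the members with a negative value, at -0.25 ± 0.18 (adjusted p = 0.408). The interaction test of CHL1 minus A375 at 72 hours of CDK4/6i called 0 members, where 0.642% of genes were called, with 1 at an unadjusted p below 0.05, 0 called by limma voom or DESeq2 and a median difference of -0.25.

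**Figure D4:**
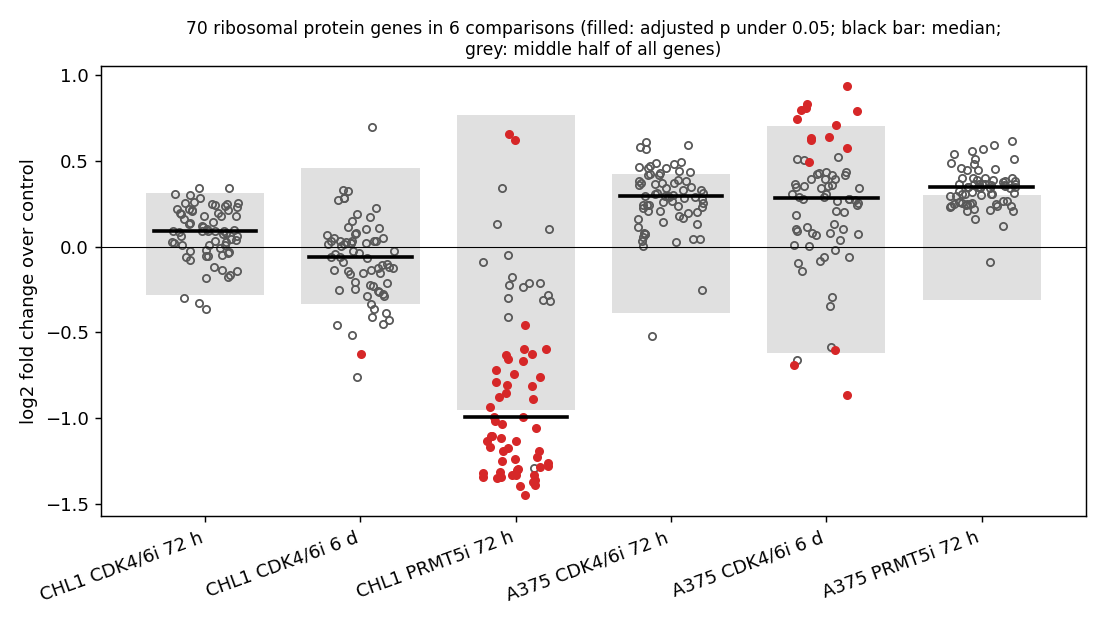
The log2 fold change over control (vertical axis) of 70 ribosomal protein genes in 6 comparisons (horizontal axis), with filled points for an adjusted p below 0.05, black bars for the median of the members and grey bands from the lower to the upper quartile of all genes. The median is -0.99 in CHL1 PRMT5i, between -0.06 and 0.09 in CHL1 CDK4/6i and between 0.28 and 0.35 in the comparisons of A375.

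After 6 days of CDK4/6i, A375 was where members moved both ways. Against the 6-day control 12 members rose and 3 fell, where 21.8% of all genes rose and 21.3% fell, so fewer of them than of all genes were called, and their median was 0.28 against 0.10 for all genes. RPL13A rose most, from 411 and 521 CPM in the 6-day controls to 975 and 811 CPM (0.94 ± 0.20, adjusted p = 0.00156). RPS9 went from 177 and 272 CPM to 436 and 365 CPM (0.83 ± 0.22, adjusted p = 0.00601) and RPS3 from 364 and 484 CPM to 833 and 656 CPM (0.81 ± 0.21, adjusted p = 0.00551). For all 3 the groups did not overlap. Among the other members that rose were RPS26, RPL7A, RPLP0, RPS15A, RPS19, RPL3, RPS20 and RPS3A, with values of 0.49 to 0.80.

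The members that fell were RPS27, RPL13 and RPL11. RPS27 went from 68.6 and 96.9 CPM to 49.6 and 41.4 CPM (-0.86 ± 0.24, adjusted p = 0.00964), RPL13 from 356 and 462 CPM to 278 and 230 CPM (-0.69 ± 0.21, adjusted p = 0.014) and RPL11 from 109 and 152 CPM to 94.8 and 77.1 CPM (-0.60 ± 0.23, adjusted p = 0.0421). RPL5, the partner of RPL11 in the 5S particle, had 0.39 ± 0.20 (adjusted p = 0.129). RPS27, RPL13 and RPL11 also fell, and RPL13A, RPS9 and RPS3 also rose, after GC correction, with which RPL5 was at 1.14 (adjusted p = 0.00565) and 12 members rose and 7 fell where 22.6% and 20.7% of genes did. Spearman's rho between GC content and fold change among the members was 0.21 before this correction and -0.61 after it. RPL5 holds 37.4% GC in the longest transcript, which the correction used, and 45.0% in the canonical one.

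Most of these directions depended on the control. The 6-day control of A375, one of the groups with a GC trend, was lower than the 72-hour control for 42 members and higher for 3, where 23.8% of all genes were lower and 24% higher, with a median of -0.67 against -0.02 for all genes. Measured against the 72-hour control instead, 6 days of CDK4/6i left 12 members lower and 1 higher, where 15% of genes were lower and 16.2% higher, and the median turned to -0.34. RPL13A was then at -0.29 and RPS3 at -0.62 (adjusted p = 0.293 and 0.031), and RPL13 remained lower at -1.57. That comparison also crosses the library sets. Leaving out 1 of the 4 libraries left 3 to 34 members called, 34 without control library 2, 3 without CDK4/6i library 1 and 10 without either of the others. Without CDK4/6i library 2 these 10 were all higher, so the falls of RPS27, RPL13 and RPL11 were lost (adjusted p = 0.088, 0.123 and 0.245). The falls of RPS27 and RPL11 were also lost without control library 2, and that of RPL11 and the rises of RPS9 and RPS3 without CDK4/6i library 1, while RPL13A passed without each library in turn.

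**Figure D5:**
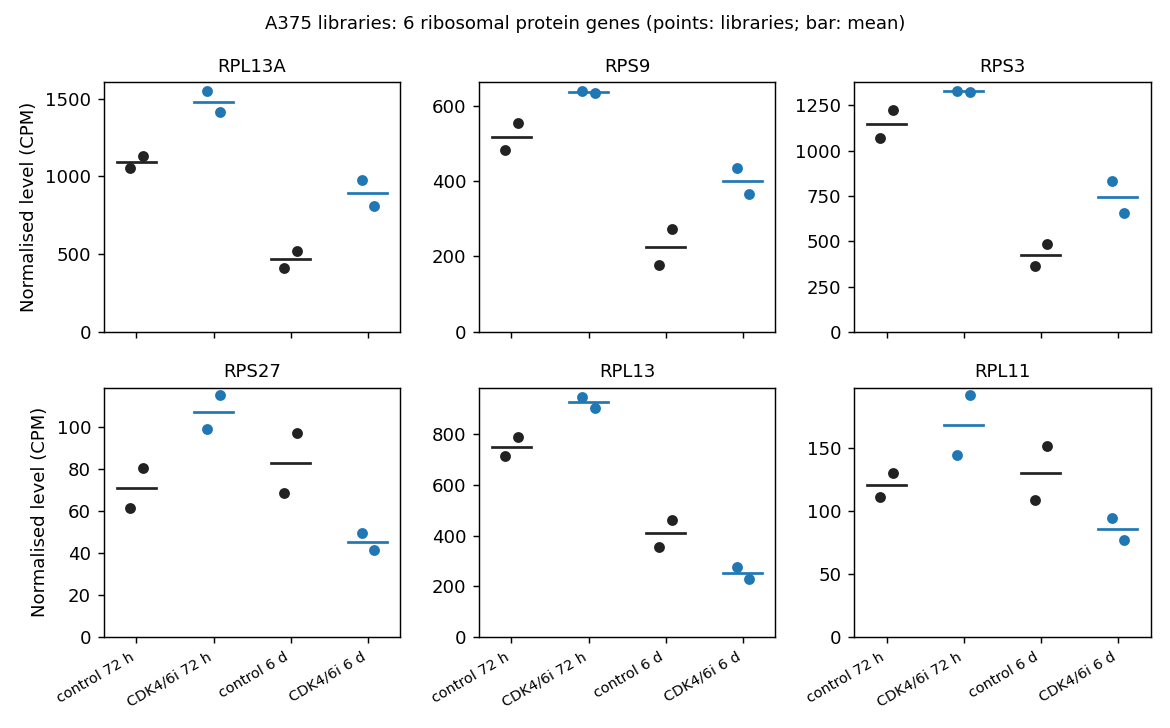
Normalised level in CPM (vertical axis, from 0) of 6 ribosomal protein genes in the A375 libraries of the controls and of CDK4/6i at 72 hours and 6 days (horizontal axis), with a point for each library and a bar for the mean. At 6 days RPL13A, RPS9 and RPS3 are higher under CDK4/6i and RPS27, RPL13 and RPL11 lower, and for RPL13A, RPS9 and RPS3 the 6-day libraries of CDK4/6i lie below both 72-hour controls.

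The response of A375 to CDK4/6i at 6 days minus that at 72 hours was called for 0 members, where 1.08% of genes were called, with 6 members at an unadjusted p below 0.05, 0 called by limma voom and 3 by DESeq2. Compared directly in CHL1 at 72 hours, PRMT5i libraries were lower than CDK4/6i libraries for 52 members and higher for 1, where 29.4% of all genes were lower and 28.4% higher. That 1 was RPL21 (0.71 ± 0.22, adjusted p = 0.0131), and RPS28 was among the lowest at -1.70 ± 0.21. In A375 the same comparison called 0 members, where 5.45% of genes were called, with 1 at an unadjusted p below 0.05, 0 called by limma voom or DESeq2 and a median of 0.04. The CHL1 comparisons with a control all share that control, and both 72-hour comparisons of A375 share theirs. Values from comparisons with the same control are not independent of each other.

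Members with and without a TOP run at an annotated start had close medians. In CHL1 PRMT5i, 33 of the 42 with the motif fell and 1 rose, with a median of -1.03, and of the 13 whose windows lack it 9 fell and 1 rose, with a median of -0.99. The remaining 15, for which no window was found, had 10 that fell and a median of -0.76. Of all genes 27.6% fell and 26.4% rose. In A375 PRMT5i the medians of the same 3 sets were 0.35, 0.35 and 0.30.

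Other genes of the ribosome and its regulation were counted from lists of names. Among further ribosomal proteins, FAU, which encodes RPS30 fused to a ubiquitin-like protein, fell in CHL1 under PRMT5i (22.7 and 16.4 CPM, then 6.59 and 10.3 CPM; -1.21 ± 0.25, adjusted p = 0.00143), as did GNB2L1, the scaffold protein RACK1 (-1.11 ± 0.18). Of 14 further mRNAs with a TOP motif, 6 rose and 3 fell in CHL1 PRMT5i, with a median of 0.13, where 26.4% of all genes rose and 27.6% fell. The elongation factors EEF2 and EEF1A1 fell (-1.38 ± 0.22 and -0.48 ± 0.17), while TPT1, a calcium-binding growth protein, went from 217 and 184 CPM to 744 and 353 CPM (1.45 ± 0.27), and NAP1L1, a histone chaperone, rose by 1.36 ± 0.18. In A375 under PRMT5i 0 of these 14 passed the test, where 2.61% of all genes did. After GC correction EEF2 and NAP1L1 in CHL1 no longer passed (adjusted p = 0.136 and 0.195), and TPT1 did.

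Of 10 regulators, the TOP mRNA binding proteins and mTORC1 with its targets, 5 fell and 3 rose in CHL1 PRMT5i, where 27.6% of all genes fell and 26.4% rose. LARP1 fell by 0.80 ± 0.15 and MLST8, a subunit of both mTOR complexes, by 1.92 ± 0.22, and both also fell after GC correction, although LARP1 did not pass with GC from canonical transcripts (adjusted p = 0.432). LARP4, which binds poly-A tails, rose by 1.36 ± 0.21, but was at 0.13 with an adjusted p of 0.392 after GC correction, and RPTOR, the scaffold of mTORC1, turned from -0.48 ± 0.16 (adjusted p = 0.0245) to 0.71 ± 0.15 (adjusted p = 0.00678). Of 9 dedicated chaperones of ribosomal proteins, 3 rose and 3 fell, where 26.4% of all genes rose and 27.6% fell. LTV1, which escorts RPS3 and RPS10, rose by 1.52 ± 0.20 and GRWD1, which escorts RPL3, fell by 1.29 ± 0.23. GRWD1 did not pass after the correction (adjusted p = 0.284). In A375 under PRMT5i and under 72 hours of CDK4/6i 0 of the regulators and 0 of the chaperones passed the test, where 2.61% and 13.3% of all genes did. In A375 at 6 days of CDK4/6i 3 regulators rose and 2 fell, where 21.8% and 21.3% of all genes did.

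Of 8 paralogs, second copies with other patterns of use, 7 were measured, and 1 rose and 3 fell in CHL1 under PRMT5i, again beside 26.4% and 27.6% of all genes. RPS27L, a known target of p53, rose in A375 from 45.2 and 53.7 CPM in the controls to 106 and 148 CPM under PRMT5i (1.36 ± 0.19, adjusted p = 0.00281) and to 78.3 and 85.9 CPM under 72 hours of CDK4/6i (0.73 ± 0.19, adjusted p = 0.0198). In neither case did the libraries overlap with the controls, and RPS27, the partner, had 0.51 and 0.59 without passing the test. With each library left out in turn, RPS27L was at 1.10 to 1.58 under PRMT5i and 0.61 to 0.89 under CDK4/6i. Neither call held in all of these fits. In CHL1 RPS27L was at 14.6 and 13.4 CPM in the controls and 18.2 and 12.3 CPM under PRMT5i, and the difference between the lines was -1.27 ± 0.29 (adjusted p = 0.00205). The part of p53 in this difference was not tested, and the cell line and the library set cannot be told apart in it. RPL22L1, the paralog that RPL22 represses, rose in CHL1 under PRMT5i (0.67 ± 0.25, adjusted p = 0.0379), from 25.5 and 20.1 CPM to 46.6 and 26.0 CPM, but was at -0.20 with an adjusted p of 0.582 after GC correction. RPL7L1, RPL26L1 and RPL36AL fell there, by 0.69 ± 0.15, 0.52 ± 0.18 and 0.58 ± 0.22, but the calls of RPL26L1 and RPL36AL were lost without control library 1 and without PRMT5i library 2, and that of RPL26L1 also without control library 2.

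The 2 cell lines differed in the level of many members without drug. In the 72-hour controls 36 members were lower and 2 higher in CHL1 than in A375, where 29.6% of all genes were lower and 29.3% higher, and the median was -0.59 against -0.02 for all genes. RPS21, of the small subunit, was at 69.2 and 50.8 CPM in CHL1 and 456 and 620 CPM in A375, a log2 difference of -3.16 ± 0.25 (adjusted p = 3.73e-09). RPS23 (-1.79 ± 0.23) and RPL13A (-1.75 ± 0.21) were also among the lowest. RPL7 and RPL31, both of the large subunit, were higher in CHL1: RPL7 was at 247 and 204 CPM against 85.4 and 119 CPM (1.14 ± 0.24, adjusted p = 0.000456) and RPL31 at 233 and 198 CPM against 92.8 and 104 CPM (1.13 ± 0.20). The cell line and the library set cannot be told apart here.

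Per length of the union of exons, RPS2 had the highest level of the 70 members in every one of the 9 groups, at 527 ± 62.2 (SD, n = 2) RPKM (CPM for each kilobase of exon) in the CHL1 control and 771 ± 76.6 RPKM in the 72-hour A375 control. In the CHL1 control it was followed by RPS12 (280 ± 62.8 RPKM) and RPL8 (259 ± 31.7 RPKM), which do not differ beyond their spread. In the A375 control RPS21 (519 ± 112 RPKM) and RPLP0 (494 ± 41.8 RPKM) followed, again within their spread. RPL17 and RPS23 were among the lowest in the CHL1 control, at 0.179 and 0.882 RPKM, and also in the A375 control, at 0.396 and 3.06 RPKM. Per length of the canonical transcript the order differed, with RPLP0 above RPS2 in A375 at 6 days of CDK4/6i. Reads that match several places were left out of the counts by default, and many members have processed copies in the genome. The table has entries for 54 copies of ribosomal protein genes, 47 of them copies of a member, and 29 members have at least 1. The part of reads lost in this way in the low levels was not tested.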

How the data were processed

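Poly-A RNA was sequenced in paired ends. Per the submitters' processing notes and the methods, the authors aligned reads with HISAT2 2.0.4 to GRCh37, counted them on genes with HTSeq at its default settings (0.11.2 in the notes, another release in the methods), and removed genes of low expression with edgeR; the deposited values, although the table is named as normalised, are whole numbers whose totals differ between libraries, and were taken as raw counts. Strandedness is not given in the sources used here. The members and lists were chosen with earlier results of these data known.

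Counts were tested with edgeR 4.0.16 in R 4.3.3 (TMM, quasi-likelihood, a fit per cell line; all 18 libraries for differences between lines), with Benjamini-Hochberg adjustment over all genes and a threshold of 0.05. CPM are TMM-adjusted. The genes named were those with fixed roles, the 2 highest and 2 lowest members of each comparison, members called, the 3 highest and lowest per length, paralogs and list genes; some genes that this rule names are not reported here. The GC correction was a loess curve (span 0.4) on GC of the longest GENCODE transcript, entered as an offset, for 13639 genes. Alternatives were limma 3.58.1 voom, DESeq2 1.42.0, other scalings, filters, fits and thresholds, and each library left out. Counts give counting error only, since reads carried no molecular identifiers.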

Additional observations from a re-analysis of the deposited data

Results flagged for a closer look

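The response to PRMT5i differed between CHL1 and A375 in a test of the interaction, with 54 ribosomal protein genes lower in CHL1. Among the genes named here, the log2 difference without GC correction was -1.38 for RPL10, -1.32 for RPL11, -1.70 for RPL13, -1.73 for RPL13A, -1.06 for RPL23, -1.13 for RPL27A, -0.91 for RPL30, -1.51 for RPL38, -1.29 for RPL41 and -0.86 for RPL5. It was -1.62 for RPLP0, -1.63 for RPLP1 and -1.76 for RPLP2 in the stalk. In the small subunit it was -1.52 for RPS14, -1.88 for RPS19, -1.69 for RPS2, -1.18 for RPS26, -1.72 for RPS27, -1.94 for RPS28, -1.44 for RPS3, -0.91 for RPS6, -1.67 for RPS9 and -1.40 for RPSA. With each library left out in turn, the calls of RPL30, RPL41, RPL5, RPS6 and RPS26 did not hold in every fit, although their differences stayed negative. The paralog RPS27L, no member of the module, differed by -1.27. With 2 libraries per group no single library could be tested as standing apart from its group.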

How the results depend on the processing

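The fall of the ribosomal protein genes in CHL1 under PRMT5i and its difference from A375 kept within 1.5 times their counts of called members under every alternative run; leaving out 1 library each gave 41 to 57 called members, and 48 to 58 in the comparison with CDK4/6i and 44 to 59 in the difference between the lines. The same ranges were 0 to 0 for CHL1 at 72 hours of CDK4/6i, 0 to 3 at 6 days and 0 to 0 between these times, 0 to 0 for A375 at 72 hours of CDK4/6i, under PRMT5i, between both and in the difference of the CDK4/6i response between lines, 3 to 34 for A375 at 6 days, 0 to 13 for its response at 6 days minus 72 hours (13 without 6-day control library 2) and 28 to 39 for the controls.

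Comparisons with few calls moved with the setting, and the cause was not tested. The shares of all genes called under these settings are not reported here. In fits restricted to the groups compared, called members numbered 1 in CHL1 after 72-hour CDK4/6i and 2 after 6 days, 24 in A375 at 72 hours and 2 at 6 days, 1 in A375 PRMT5i and 1 between its treatments. With the 6 A375 libraries of 72 hours they were 12 for CDK4/6i and 10 for PRMT5i, and with all 18 libraries 2 for CHL1 at 6 days, 2 for A375 at 72 hours and 1 for the A375 response at 6 days minus 72 hours. At an adjusted p below 0.01 they were 0 for CHL1 and 6 for A375 at 6 days. DESeq2 called 3 in A375 at 72 hours of CDK4/6i and 3 in the response at 6 days minus 72 hours, where the median-of-ratios scaling and the filter of 1 CPM called 1 each. After GC correction the counts were 5 for CHL1 at 6 days, 7 for A375 at 72 hours, 2 for A375 PRMT5i, 1 between the A375 treatments and 1 for that response, and on the same genes without correction 2 for A375 at 72 hours and 1 for that response. With corrections chosen after seeing the data, for GC and length or from canonical transcripts, they were 5 for CHL1 at 6 days, 8 for A375 at 72 hours, 2 for A375 PRMT5i and 2 for that response.

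A replicate block moved the A375 results of 72 hours most: 47 members were called for CDK4/6i, all but RPL21 higher, 56 for PRMT5i, all higher, and 8 between the treatments. With the block and GC correction they were 54 and 58, and 5 for CHL1 at 6 days. The shares of all genes called in these fits are not reported here, so the counts do not show whether the members gained calls more than other genes. In A375 at 72 hours the equally numbered samples share that number and have consecutive suffixes in their titles. The deviations of equally numbered libraries correlated at 0.12 to 0.37 in A375 and -0.23 to 0.27 in CHL1. No label makes the numbers or the suffixes a batch. The 6-day A375 groups carry no numbers.

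Single genes that reversed in CHL1 PRMT5i were RPL9, at -0.050 with GC correction, -0.0069 from canonical transcripts and -0.079 with the block and GC correction, and RPL22L1, at -0.20, -0.0035 with GC and length, -0.21 and -0.23. RPTOR and PTPRC also reversed there. Under the same corrections (GC, GC and length, canonical transcripts, block and GC) RPTOR was at 0.71, 0.64, 0.70 and 0.71 and PTPRC at -0.27, -0.19, -0.048 and -0.27. At 6 days of CDK4/6i in A375 against the 72-hour control, RPL10 was at -0.89, RPL13A at -0.29, RPL30 at -0.64, RPLP0 at -0.49, RPS15A at -0.34, RPS19 at -0.42, RPS2 at -0.93, RPS23 at -0.91, RPS28 at -0.68, RPS3 at -0.62 and RPS9 at -0.37; RPLP2 was at -0.40 with GC from canonical transcripts. Without the 10 most abundant other genes of each library the members' share was 0.803% in CHL1 PRMT5i, 1.78% in CHL1 at 6 days and 3.98% in A375 at 72 hours of CDK4/6i. The median level per length was 61.3 RPKM in the CHL1 control and 111 RPKM in the A375 control over the union of exons, 99.9 and 149.98 RPKM over the longest transcript and 239 and 396 RPKM over the canonical one. Low counts limited the values of RPL17, and 2 libraries a group limit every comparison.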
